A study of Homo sapiens with 21 samples.

Results

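The lysyl oxidase family was examined for binding of ER-beta, the estrogen receptor that ESR2 encodes, in the triple-negative breast cancer line MDA-MB-231. The family has 5 genes, LOX, LOXL1, LOXL2, LOXL3 and LOXL4, out of 20033 protein-coding genes in the annotation. Enriched regions were chosen by position: a region counted when its summit, the base with the highest signal, lay within 50 kb of the body of a family gene. This gave 36 of 26861 regions with estradiol, 15 of 10045 with LY500307 and 5 of 2905 with ethanol. Joined by overlap, they made 36 sites.

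The cells carried a doxycycline-inducible, Flag-tagged ER-beta, and every group received doxycycline at 100 ng/ml for 24 h, so no group lacked the receptor and binding was read through the tag. Medium free of phenol red and serum stripped with charcoal were used throughout. Chromatin was then precipitated with the Flag antibody M2 after 3 h with 1 nM estradiol, with LY500307, an ER-beta-selective agonist, or with the vehicle ethanol. The LY500307 dose is uncertain, because the sample titles give 1 nM and the other labels 10 nM. Each treatment had 4 ChIP and 3 input libraries, but 1 list of enriched regions per treatment was analysed, so no value below has a replicate error and nothing was tested between treatments.

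Lysyl oxidases are secreted, copper-dependent amine oxidases. They oxidise lysine side chains of collagen and elastin, and the aldehydes formed then join neighbouring chains into cross-links that stiffen the matrix. LOX and LOXL1 are made with a propeptide that is cleaved off outside the cell, whereas LOXL2, LOXL3 and LOXL4 carry scavenger receptor domains instead. In breast cancer the family is best known for matrix stiffening and for the spread of hypoxic tumours.

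The sequences under the strongest sites of LOX, LOXL1, LOXL3 and LOXL4 are shown first, because they set apart sites with a recognisable estrogen response element (ERE) from sites of similar strength without one. An ERE was taken as GGTCA and TGACC separated by any 3 bases, with at most 1 mismatch in the 10 fixed positions. It was sought in the 100 bases on either side of each summit and the summit base, on both strands. All sequences are the plus strand of hg38 around the estradiol summit. Capitals mark the best ERE match where it had at most 2 mismatches, and an AP-1 element, TGANTCA, where there was a copy.
LOX intron 2, chr5:122076654-122076854: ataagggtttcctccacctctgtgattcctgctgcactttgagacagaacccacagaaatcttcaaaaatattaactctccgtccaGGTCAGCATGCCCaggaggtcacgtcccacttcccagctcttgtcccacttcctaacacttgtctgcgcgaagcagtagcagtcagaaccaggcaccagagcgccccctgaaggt
LOX upstream, chr5:122099154-122099354: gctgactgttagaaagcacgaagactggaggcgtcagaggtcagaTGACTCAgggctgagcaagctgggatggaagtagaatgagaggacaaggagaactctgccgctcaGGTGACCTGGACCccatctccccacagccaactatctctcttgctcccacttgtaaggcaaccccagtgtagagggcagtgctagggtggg
LOXL4 upstream, chr10:98269356-98269556: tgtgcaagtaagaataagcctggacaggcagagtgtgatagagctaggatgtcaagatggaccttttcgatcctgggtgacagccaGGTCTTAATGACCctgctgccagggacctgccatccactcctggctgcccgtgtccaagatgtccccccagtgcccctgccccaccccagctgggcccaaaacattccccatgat
LOXL4 far upstream, chr10:98314455-98314655: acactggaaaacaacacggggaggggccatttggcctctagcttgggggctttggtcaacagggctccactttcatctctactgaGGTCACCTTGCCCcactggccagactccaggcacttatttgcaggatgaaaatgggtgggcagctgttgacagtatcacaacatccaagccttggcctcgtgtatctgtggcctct
LOXL1 intron 6, chr15:73951321-73951521: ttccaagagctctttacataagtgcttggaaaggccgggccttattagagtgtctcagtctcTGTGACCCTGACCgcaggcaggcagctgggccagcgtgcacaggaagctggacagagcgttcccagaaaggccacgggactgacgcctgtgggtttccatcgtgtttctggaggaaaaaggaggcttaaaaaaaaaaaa
LOXL3 window, LBX2 intron, chr2:74498610-74498810: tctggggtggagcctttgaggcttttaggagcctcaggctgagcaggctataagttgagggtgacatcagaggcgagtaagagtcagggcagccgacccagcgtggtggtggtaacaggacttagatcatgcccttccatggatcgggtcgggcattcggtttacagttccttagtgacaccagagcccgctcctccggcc

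With positions counted from 1 at the left end of the 13-base motif, the LOX intron 2 copy differed from the ERE by A11C, and the LOXL4 far upstream copy carried the same A11C. The LOXL4 upstream copy differed by A5T. The centres of these 3 elements lay 8, 9 and 8 bases to the left of the estradiol summit, for LOX intron 2, LOXL4 far upstream and LOXL4 upstream. The LOX upstream sequence held a weaker match with 2 mismatches, C4G and T9G, whose centre was 16 bases to the right of the summit, and 1 AP-1 element. The LOXL1 intron 6 match also had 2 mismatches, G1T and C4G. The window in the LBX2 intron, near LOXL3, had no match with fewer than 3 mismatches, no AP-1 element and no single arm AGGTCA. A window of the same size around the LY500307 summit of this site, 29 bp away, did hold an AP-1 element.

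**Figure D1:**
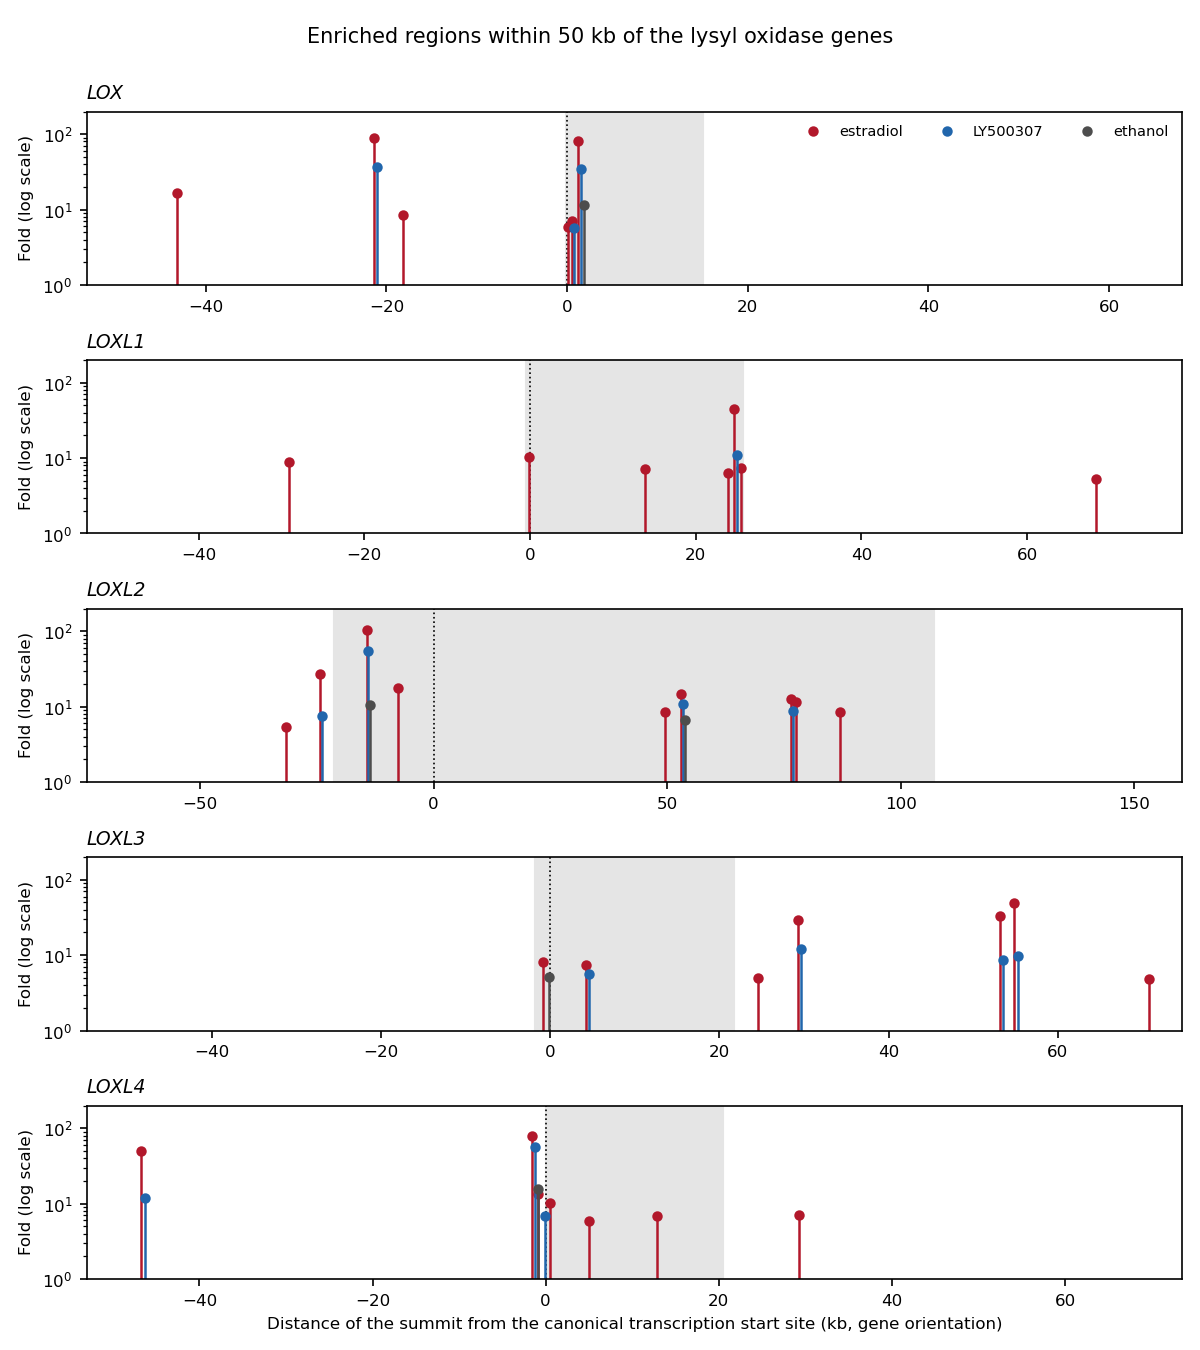
Fold (log scale) of every region with a summit within 50 kb of a family gene, against its distance in kb from the canonical transcription start site, with upstream to the left. Grey marks the gene body and the dotted line the start site, and the points of the 3 lists are slightly shifted to either side for legibility. The strongest regions of LOX, LOXL2 and LOXL4 lay upstream of the start site or just inside the gene, with estradiol folds of 79.7 to 102.9.

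All 5 genes had at least 6 estradiol regions, a number reached by 16.3% of protein-coding genes. The cut of 6 was the lowest count among the 5 genes themselves. All 5 also had an LY500307 region. An ethanol region was near 4 of 5, LOXL1 being the exception, so 4 of 5 had regions in all 3 lists, against 20.5% of protein-coding genes. Among all protein-coding genes 74.5% had an estradiol region, 49.1% an LY500307 region and 22.8% an ethanol region within 50 kb. A family gene had a median of 7 estradiol, 3 LY500307 and 1 ethanol regions. The medians over all protein-coding genes were 2 for estradiol, 0 for LY500307 and 0 for ethanol. The median gene length was 23433 bp in the family and 27471 bp over all protein-coding genes, and LOXL2, at 128432 bp, had both the longest body and the most regions. The part of gene length in the counts was not tested. The family was picked with these counts in view, so they are a description.

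**Figure D2:**
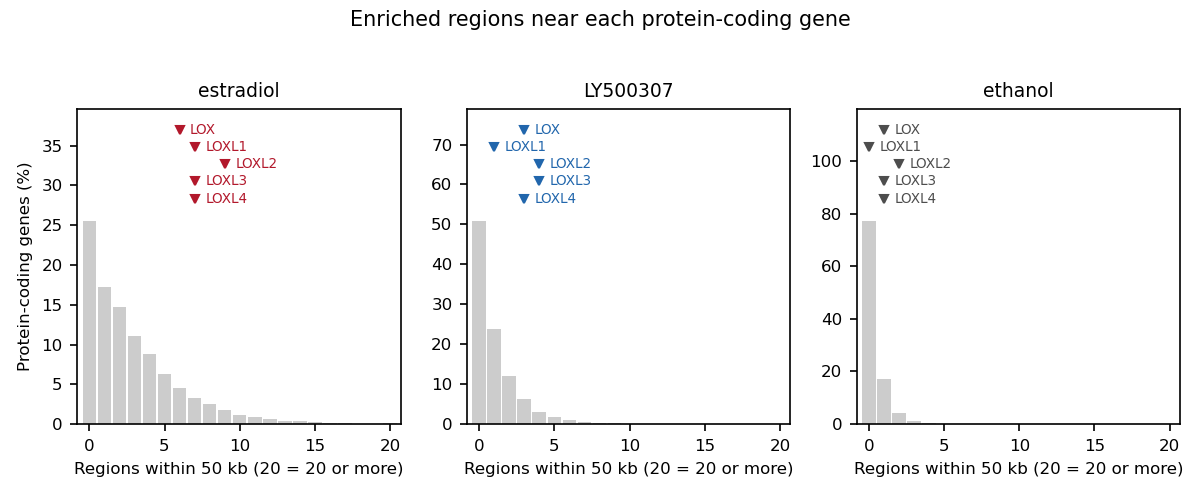
Share of protein-coding genes (%, grey bars) by the number of regions within 50 kb of the gene body, for the estradiol, LY500307 and ethanol lists. Triangles mark the family genes, at 6 to 9 regions with estradiol, 1 to 4 with LY500307 and 0 to 2 with ethanol.

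The regions themselves were near the middle of the estradiol list in strength. Fold is the authors' ratio of ChIP to local background signal at the summit. Its median was 9.64 over the 36 estradiol regions near the family and 9.50 over the whole estradiol list. With LY500307 it was 10.9 over 15 regions and 8.46 over the list, and with ethanol 10.7 over 5 regions and 7.0 over the list. By fold, 7 of the 36 estradiol regions, 4 of the 15 LY500307 regions and 0 of the 5 ethanol regions were in the top 10% of their list. Each pool was scaled on its own, so folds of 1 site in different lists stand side by side and do not measure a change.

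The number of ChIP fragments that covered each summit was recovered from the deposited fold and p, which gives the depth behind each value. Near the family it ranged from 11 to 293 with estradiol. At the lowest local background, the fewest fragments in any listed region were 7 with estradiol, 10 with LY500307 and 12 with ethanol, so a site absent from a list was below the threshold there and not shown to be unbound. Counts of 1 site in different lists do not measure a change, because the read depth of each pool is not given. The lowest local background was 1.00 fragments with estradiol, 1.39 with LY500307 and 1.97 with ethanol. Intervals are 95% exact Poisson intervals. They cover counting error only and not the spread between libraries, since each list was read as 1 pool. Repeated PCR copies are not independent molecules, so the intervals are too narrow where such copies were counted.

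LOX, the founding member, which cross-links collagen and elastin, had 6 estradiol, 3 LY500307 and 1 ethanol regions around its body (chromosome 5, 122063195 to 122078413, minus strand). The region with the ERE lay in intron 2, 1505 bp downstream of the canonical start site (122076504 to 122076982). An alternative LOX start site was nearer, 420 bp from the estradiol summit of this region. The region reached 82.2-fold with estradiol, 34.9-fold with LY500307 and 11.5-fold with ethanol. It ranked 994 with estradiol (top 3.70%), 760 with LY500307 (top 7.57%) and 577 with ethanol (top 19.9%). The summit was covered by 285 fragments with estradiol (253 to 320), 148 with LY500307 (125 to 174) and 38 with ethanol (26.9 to 52.2). The 3 summits fell within 21 bp of each other, and a separate single arm AGGTCA began 2 bases to the right of the estradiol summit.

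The strongest LOX region by fold was intergenic, 21.0 kb upstream of the start site (122098970 to 122099518), with LOX as the nearest protein-coding start site. The fold was 88.9 with estradiol (rank 834, 253 fragments, 223 to 286) and 36.8 with LY500307 (rank 697, 126 fragments, 105 to 150). It had no ethanol region. Of the estradiol regions in the top 5% by fold, where this site belonged, 75.2% overlapped an ethanol region. The site thus kept a high place in both ligand lists, without an ERE of at most 1 mismatch and without a listed vehicle region.

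The other LOX regions had lower folds. Canonical exon 1 had a region at 7.15-fold with estradiol and 5.69-fold with LY500307, and a neighbouring one at 5.81-fold with estradiol alone. The estradiol summit of the first was 190 bp from an alternative LOX start site. Intergenic regions 17.8 kb and 42.8 kb upstream had estradiol folds of 8.50 and 16.5 and were in no other list. The 42.8 kb region held an AP-1 element and was nearest to the start site of ZNF474, a zinc finger gene. Just past the 50 kb limit, 51.9 kb from the gene body, lay a region that was not counted, at 26.8-fold with estradiol and 10.7-fold with LY500307.

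LOXL1, which is needed for elastic fibre upkeep, had 7 estradiol regions, 1 LY500307 region and no ethanol region (chromosome 15, 73925989 to 73952137, plus strand). Its strongest region sat in intron 6, 25.0 kb downstream of the start site and close to the 3' end of the gene (73951204 to 73951616). The fold there was 45.1 with estradiol (rank 2578, 100 fragments, 81.4 to 122) and 11.0 with LY500307 (rank 3702, 28 fragments, 18.6 to 40.5). The 2 summits were 5 bp apart. A further estradiol region in intron 6 had a fold of 6.33, and 1 at 118 bp past the end of the gene had 7.48.

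At the 5' end, an estradiol region in the untranslated part of LOXL1 exon 1, 177 bp downstream of the start site, had a fold of 10.5 (20 fragments, 12.2 to 30.9). Intron 1 held 1 more at 7.19, with 3 copies of the single arm AGGTCA. The copies lay in a stretch of similar repeated units, where the local background was 2.48. A region 28.8 kb upstream had a fold of 9.0, and 1 at the promoter of STOML1, 43.0 kb past the gene body, had 5.25. The summit of the STOML1 region lay inside PML, whose start site was the nearest, at 285 bp. None of these 4 regions was in another list, and none held an ERE.

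LOXL3, which acts on collagen during development of the palate and spine in mice, lay in the most crowded window, with 10 other protein-coding genes within 50 kb (chromosome 2, 74532258 to 74555690, minus strand). Of its 7 sites, 1 was nearest to a LOXL3 start site, against 25 of the 29 sites of the other 4 genes. The 3 strong sites all belonged by position to neighbours. In an intron of LBX2, a homeobox gene, the fold was 49.96 with estradiol (109 fragments, 89.5 to 131) and 9.85 with LY500307 (33 fragments, 22.7 to 46.3). The LBX2 promoter had 33.2 with estradiol and 8.69 with LY500307, and a coding exon of DQX1, a helicase-like gene, had 29.0 with estradiol and 12.1 with LY500307.

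Regions at LOXL3 itself were weak. At an alternative start site within canonical exon 4 (74549287 to 74549582) the fold was 7.50 with estradiol and 5.69 with LY500307, with 14 fragments in each list (7.65 to 23.5). At the promoter shared with DOK1, an adaptor of tyrosine kinase signalling, 0.443 kb upstream of the canonical LOXL3 start site, it was 8.04 with estradiol and 5.16 with ethanol, with 17 fragments in each (9.90 to 27.2). This was the only site of the 36 found with estradiol and ethanol but not with LY500307, and its ethanol -log10 q of 4.99, from the authors' deposited table, was the lowest of the 5 ethanol regions. Estradiol regions at the promoters of TTC31 and of HTRA2, a mitochondrial protease gene, had folds of 4.89 and 4.98. Their summits lay inside CCDC142 and AUP1, whose start sites were the nearest, at 238 and 647 bp. The TTC31 promoter region lay 49.5 kb from the LOXL3 body, the farthest site inside the limit. None of the LOXL3 sites held an ERE or an AP-1 element at the estradiol summit.

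LOXL4 had 7 estradiol, 3 LY500307 regions and 1 ethanol region (chromosome 10, 98247690 to 98268194, minus strand), and LOXL4 was the nearest protein-coding start site for all 7 sites. The main site lay 1262 bp upstream of the start site (98269179 to 98269747) and held the ERE with A5T. The fold there was 79.7 under estradiol, 57.3 under LY500307 and 15.7 under ethanol. The rank was 1052 with estradiol (top 3.92%), 295 with LY500307 (top 2.94%) and 339 with ethanol (top 11.7%). It had 276 fragments with estradiol (244 to 311), 136 with LY500307 (114 to 161) and 47 with ethanol (34.5 to 62.5), and the 3 summits spanned 20 bp. With LY500307 and with ethanol this was the highest-ranked region of the whole family.

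The far upstream LOXL4 site, 46.4 kb from the start site (98314323 to 98315032), was intergenic and held the other ERE. Its fold was 50.7 with estradiol (105 fragments, 85.9 to 127) and 11.9 with LY500307 (38 fragments, 26.9 to 52.2), and it had no ethanol region. The LOXL4 promoter had a broad estradiol region of 914 bp with a fold of 13.4, and an LY500307 region with 6.93 whose summit was 433 bp from the estradiol one. Regions in intron 1, exon 2, intron 10 and 29.6 kb downstream of the start site were estradiol-only, with folds of 10.3, 5.81, 6.90 and 7.15. The last of these lay past the end of LOXL4, 9.10 kb from its body, in an intron of R3HCC1L.

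LOXL2, which cross-links collagen IV of basement membranes and also binds the transcription factor SNAI1, had the most regions, with 9 for estradiol, 4 for LY500307 and 2 for ethanol (chromosome 8, 23296897 to 23425328, minus strand). The strongest region of the family with estradiol lay there, 14.0 kb upstream of the canonical start site (23417827 to 23418447), inside a longer LOXL2 transcript and in an intron of ENTPD4, a nucleotidase gene that overlaps it. Enrichment there was 102.9-fold with estradiol, 55.2-fold with LY500307 and 10.7-fold with ethanol. Its rank was 561 with estradiol (top 2.09%), 319 with LY500307 (top 3.18%) and 660 with ethanol (top 22.7%). The fragments numbered 293 with estradiol (260 to 329), 131 with LY500307 (110 to 155) and 34 with ethanol (23.5 to 47.5). The best ERE match had 2 mismatches.

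A site in LOXL2 intron 3 (23350537 to 23351068) was also in all 3 lists and held an ERE with 1 mismatch, but with lower folds than the other sites found everywhere, at 14.7-fold with estradiol, 10.9-fold with LY500307 and 6.72-fold with ethanol. It had 32 fragments with estradiol (21.9 to 45.2), 25 with LY500307 (16.2 to 36.9) and 21 with ethanol (13.0 to 32.1). Both ligand lists held a region in the ENTPD4 intron 23.9 kb upstream, at 27.0-fold with estradiol and 7.59-fold with LY500307, and a region in LOXL2 intron 6 at 12.6-fold with estradiol and 8.79-fold with LY500307. The other 5 LOXL2 regions were found with estradiol alone, at folds of 5.36 to 17.5.

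**Figure D3:**
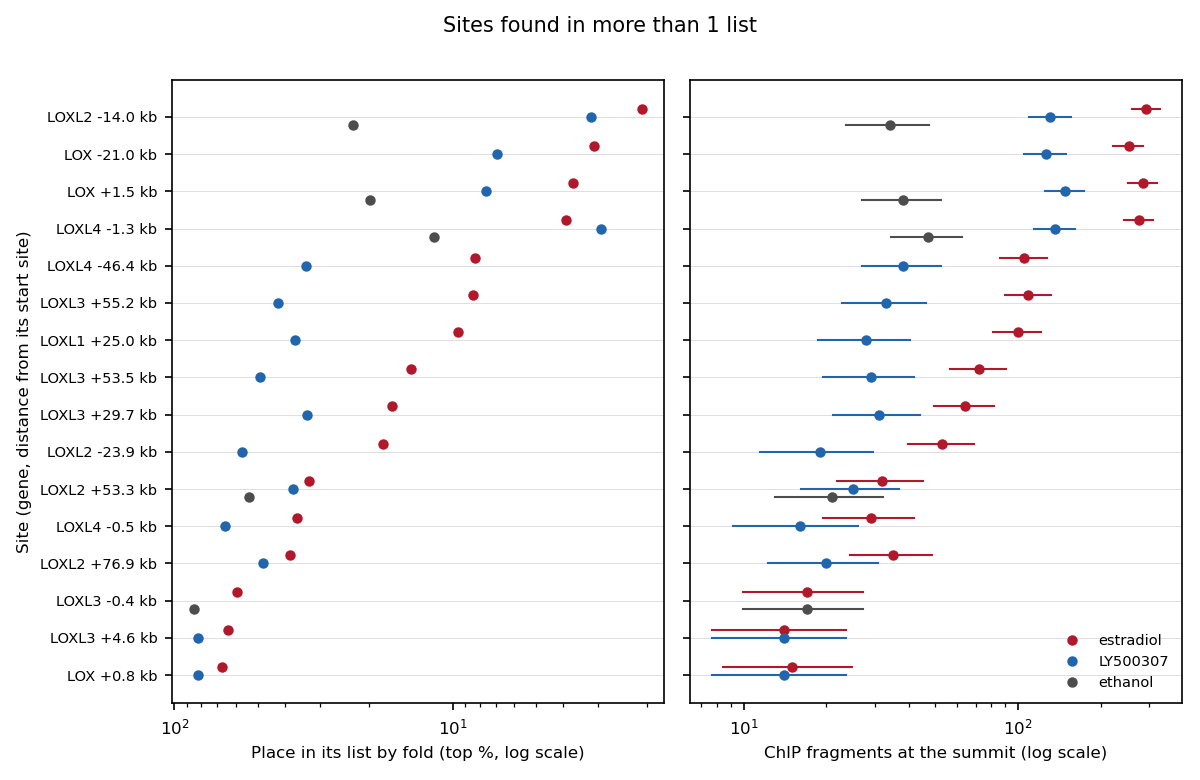
The 16 sites found in more than 1 list, ordered by estradiol fold and named by gene and distance in kb from the canonical start site. On the left is the place of each region in its own list by fold (top %, log scale, strongest to the right), and on the right the ChIP fragments at the summit (log scale) with 95% exact Poisson intervals. The estradiol points of the 4 strongest sites lie at 253 to 293 fragments, and the 5 ethanol points at 17 to 47. Fragment counts were not scaled for read depth and do not measure a change between lists.

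Over the family, every LY500307 region and every ethanol region overlapped an estradiol region. Among all regions, 91.9% of the LY500307 list and 87.0% of the ethanol list did. Of the 15 LY500307 regions, 4 overlapped an ethanol region, against 22.9% of that list, and 4 of the 5 ethanol regions overlapped an LY500307 region, against 79.8%. Of the 36 estradiol regions, 15 overlapped an LY500307 region, against 33.8% of the whole list, and 5 overlapped an ethanol region, against 9.26%. In all, 4 sites were in 3 lists, against 8.01% of all estradiol regions, and 20 were in the estradiol list alone, against 64.9%. Both ligand lists but not the ethanol list held 11, and 1 was in the estradiol and ethanol lists only. The 20 had a median estradiol fold of 7.33 and none exceeded 17.5, whereas the 4 found everywhere were at 14.7, 79.7, 82.2 and 102.9, with a median of 80.9. The whole estradiol list had the same contrast, with medians of 7.59 for regions in that list alone and 66.1 for regions in all 3.

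EREs were about as frequent as in the whole estradiol list, at 4 of the 36 regions against 13.8% of the list. The count was also 4 of 15 with LY500307 (15.7% of the list) and 3 of 5 with ethanol (15.0% of the list). By sharing, an ERE was at 3 of the 4 sites in all 3 lists, at 1 of the 11 in both ligand lists and at 0 of the 20 with estradiol alone. Over the whole estradiol list the shares for these patterns were 19.9%, 16.6% and 12.2%. A match with at most 2 mismatches was in 14 of the 36 estradiol regions (44.6% of the list) and in 8 of the 15 LY500307 regions (46.9%). No family region had an intact ERE, which 1.65% of estradiol, 1.84% of LY500307 and 2.38% of ethanol regions had.

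**Figure D4:**
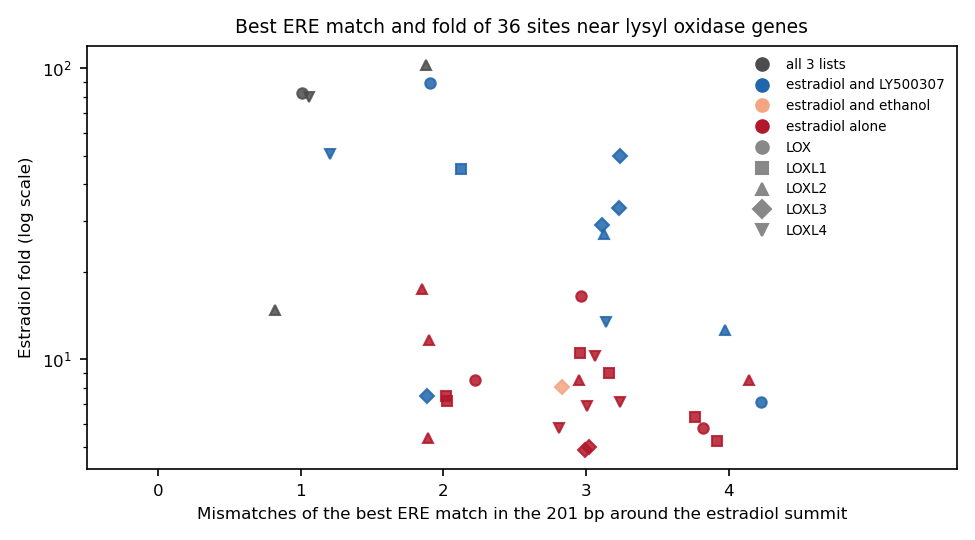
Estradiol fold (log scale) of the 36 sites against the number of mismatches of the best ERE match in the 100 bases on either side of the summit, with the points spread sideways for legibility. Symbols give the gene and colours the lists that held the site. Of the 5 sites with a fold of 50.7 or more, 3 had 1 mismatch and 2 had 2 mismatches, and the LOXL3 window's strongest site had 3.

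Other elements were counted in the same windows. The single arm AGGTCA, which can also be part of an ERE, was in 15 of the 36 estradiol windows (41.7%), against 44.7% of the list. The SP1 element GGGCGG was in 7 (19.4%, against 20.8% of the list). The TEAD element GGAATG was in 4 (11.1%, against 16.3%) and AP-1 in 3 (8.33%, against 17.5%), fewer than those shares, in small counts that were not tested. Promoters of protein-coding genes, from 1000 bp upstream to 100 bp downstream of a start site, held 9 of the 36 summits, against 16.4% of the list, and 5 of the 9 were in the LOXL3 window. With LY500307, promoters held 3 of the 15 summits (14.0% of the list), and with ethanol 1 of the 5 (19.2%). The median GC content of the same windows was 55.5% near the family and 54.7% over the list.

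The same count was made for 23 other genes that act with lysyl oxidases. Of these, 19 had an estradiol region within 50 kb, 14 an LY500307 region and 7 an ethanol region, to be read against the 74.5% (estradiol), 49.1% (LY500307) and 22.8% (ethanol) of all protein-coding genes. The median number of regions per gene was 4 with estradiol, 1 with LY500307 and 0 with ethanol. All 4 genes for processing of procollagen and of the LOX precursor had an estradiol region. BMP1, the protease that cuts the LOX propeptide, had the strongest of all in its intron 6, at 161.7-fold with estradiol (rank 57), 95.8-fold with LY500307 (rank 38) and 32.6-fold with ethanol (rank 61). PCOLCE, an enhancer of that protease, had a region in coding exon 5 at 69.6-fold with estradiol, 18.8-fold with LY500307 and 5.72-fold with ethanol. TLL2, a related protease, had 1 in intron 2 at 56.3-fold with estradiol and 17.8-fold with LY500307.

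Among matrix substrates, 5 of 6 genes had an estradiol region, 4 an LY500307 region and 0 an ethanol region. The shares of all protein-coding genes were 74.5% for estradiol, 49.1% for LY500307 and 22.8% for ethanol, and these small counts were not tested. The strongest regions lay 13.1 kb upstream of COL4A1, a basement membrane collagen gene, in an intron of COL4A2 (43.5 with estradiol, 11.3 with LY500307), and 5.72 kb upstream of ELN, the elastin gene (41.6 with estradiol, 11.9 with LY500307). COL1A1, a chain of type I collagen, had a region 8.34 kb upstream with an ERE of 1 mismatch (20.1 with estradiol), with an overlapping LY500307 region at 5.02, and COL3A1 had none. PLOD2, a collagen lysyl hydroxylase gene, had its strongest estradiol region in intron 1, 21.0 kb from the start site (78.6), whereas its strongest LY500307 and ethanol regions were in the same intron at 0.520 and 0.612 kb (33.5 and 5.89). The promoter of SNAI1, the epithelial-mesenchymal transition factor that LOXL2 binds, reached 60.0-fold with estradiol, 31.8-fold with LY500307 and 6.53-fold with ethanol. Some strong regions lay in neighbours. Near HIF1A, an intron of SNAPC1 had 73.1 with estradiol, 43.5 with LY500307 and 8.24 with ethanol. Near PLOD3, a collagen hydroxylase gene, a coding exon of VGF had 71.6 with estradiol, 37.7 with LY500307 and 5.57 with ethanol. EFEMP2 had 15 estradiol, 5 LY500307 and 5 ethanol regions within 50 kb, none within its own body. ATP7A, the copper transporter that supplies the enzymes, POSTN and P4HA1 had no region in any list.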

How the data were processed

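ER-beta binding was measured by ChIP-seq. Per the submitters' processing notes, hg38, DiffBind, MACS2 2.1.1.20160309 and Bowtie2 2.2.6 were used; their roles are not given in the sources used here. Each deposited list gives a fold ratio, −log10 p, −log10 q, a summit offset and a display score, per the file's column order; the deposited score was not used. For a treatment, all 4 ChIP libraries carry the name of 1 list in their labels, which was read as a pool; which libraries went into it is not stated, and the read depth is not given. Single libraries and inputs were not analysed here.

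Only autosomes, X and Y were used (26861 of 26896 estradiol, 10045 of 10059 LY500307, 2905 of 2911 ethanol), and all ended within the hg38 sequences. Positions count from 1. Genes came from GENCODE 44. Regions sharing at least 1 bp were called shared, and ranks are by fold. Fragments were taken as the whole number that, with a Poisson tail and a pseudocount of 1 in the fold, gives both deposited fold and −log10 p (tolerance 1e-04, 0.001 for ethanol). This explained 26861, 10044 and 2905 records. Ethanol pileups came in steps of 0.912 per fragment. The recovery and the motif search were tested on simulated data. Genes, lists and comparisons were chosen with earlier results of these data known. Described one by one were regions with the highest fold per gene, in several lists or with an ERE; weaker ones are given as well. No statistical test was made. Tools were Python 3.11.15, numpy 2.4.6, pandas 2.3.3, scipy 1.17.1, pysam 0.24.0 and matplotlib 3.10.9.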

Additional observations from a re-analysis of the deposited data

How the results depend on the processing

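Of the recomputed counts, 55 stayed within 1.5 times the value given and 8 moved further. At a -log10 q of 10 or more, 3 ethanol regions were left near the family. With at least 50% of each region covered, 3 estradiol and ethanol regions were shared, counted from either list. With no mismatch allowed, 0 regions of each list had an ERE; with 2 allowed, 14 did with estradiol and 8 with LY500307. Ranking by fragments, chosen after seeing the data, put 5 estradiol regions in the top 10% in place of 7. Windows of 20 and 100 kb gave 28 and 47 estradiol regions. No paired analysis was possible because the labels give no shared replicate numbers and each list is a pool; libraries could not be left out in turn for the same reason.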

Other observations

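Between 50 and 100 kb from the gene bodies lay 11 more estradiol regions, 4 LY500307 regions and 0 ethanol regions, and 3 of the 11 held an ERE with at most 1 mismatch. Beyond LOXL1, PML, which builds nuclear bodies, had a promoter region with such an ERE, at 25.9-fold with estradiol and 7.04-fold with LY500307, and an intronic estradiol region with another (fold 16.9). Beyond LOXL4, an intergenic region 76.4 kb from the gene body had 31.6 with estradiol and 18.5 with LY500307.

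The order of sites depended on whether fold or fragments were read. The LOX intron 2 site had more fragments than the LOX upstream site in both ligand lists (285 against 253 with estradiol, 148 against 126 with LY500307) but the lower fold in both (82.2 against 88.9, and 34.9 against 36.8). The recovered local background was 2.48 at the LOX intron 2 site and 1.86 at the LOX upstream site with estradiol, and 3.27 and 2.45 with LY500307. Of the 36 estradiol regions near the family, 23 had a background at a whole multiple of 0.619, with 14 at 2 steps, 4 at 3 and 5 at 4. In the ethanol list the step was 1 in units of pileup, in which 1 fragment counted 0.912. The LOXL1 intron 6 and LOXL4 far upstream sites were in the top 10% of the estradiol list by fold (9.60% and 8.28%) and outside it by fragments (11.0% and 10.4%).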
